A study of Mus musculus with 16 samples.

Results

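The genes of VEGF and angiopoietin signalling described here are 3 VEGF ligand genes (Vegfa, Vegfb and Vegfc), 3 VEGF receptor genes (Flt1, Kdr and Flt4), 2 angiopoietin ligand genes (Angpt1 and Angpt2) and 2 Tie receptor genes (Tek and Tie1). They were chosen by name, as the rows of the expression table that carry these 10 symbols among its 16091 genes. All 10 had a row and all 10 were among the 14189 genes above the filter on low values. Messenger RNA was measured by poly-A RNA sequencing of inguinal white adipose tissue, the subcutaneous fat of the groin, from C57BL6/J mice. The 4 groups of 4 libraries were mice on a high-fat diet (HFD) given an antibody against PDGFcc, HFD mice without antibody, control diet (CD) mice given the antibody, and CD mice without antibody. PDGF-CC is a platelet-derived growth factor that signals through the receptor encoded by Pdgfra. The antibody, AF1447, was injected into the peritoneum at 50 mg/kg in 100 µl, every 2 days during 2 weeks, in mice that were 6 weeks old. The labels do not state if mice without antibody were injected with anything, for what time the diets were fed, or if each library is 1 animal. The antibody targets the protein, so the level of Pdgfc RNA is no check of the labels.

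VEGF ligands are secreted growth factors that bind receptor tyrosine kinases on endothelial cells and drive the sprouting and permeability of vessels. In fat, adipocytes are a main source of VEGF-A, and the capillary bed grows with the depot. The angiopoietins act on the receptor encoded by Tek. Angiopoietin 1 keeps vessels quiet and stable, whereas angiopoietin 2, released by endothelial cells themselves, opposes it in many settings and loosens vessels for remodelling.

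Few of these genes passed the test. Vegfb was lower in HFD libraries when the diet effect was averaged over both antibody states, and that call was close to the threshold. With antibody the estimate for Angpt2 was lower, and those for Vegfa and Vegfc were higher, on both diets, but none of the 3 passed the threshold over all genes. Set against a list of endothelial markers from the same libraries, Angpt2 fell with antibody past the threshold. Flt1, Kdr, Flt4 and Tie1 correlated with that endothelial list from library to library, while the correlation of Tek did not pass the test.

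Promoter sequence is shown for 3 of the receptor genes, Flt1 and Kdr because they varied together over the libraries, and Tek as the receptor whose correlation with the endothelial list did not pass the test. The bases come from RefSeq's table for GRCm38.p6, which has an entry for 8 of the 10 genes, and end at the base before the annotated gene start. Capitals mark matches on either strand to GGAAG, a core of ETS factor sites, which occur in many endothelial promoters, and to TGACGTCA, the full cAMP response element. The matches to one motif do not overlap those to the other.
Flt1, chr5:147726012-147726261, minus strand: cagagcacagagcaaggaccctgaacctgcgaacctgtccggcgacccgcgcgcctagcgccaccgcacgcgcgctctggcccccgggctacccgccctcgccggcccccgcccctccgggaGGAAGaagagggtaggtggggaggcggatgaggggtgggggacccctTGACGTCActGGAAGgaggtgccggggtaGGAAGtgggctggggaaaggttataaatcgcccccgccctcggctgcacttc
Kdr, chr5:75978459-75978705, minus strand: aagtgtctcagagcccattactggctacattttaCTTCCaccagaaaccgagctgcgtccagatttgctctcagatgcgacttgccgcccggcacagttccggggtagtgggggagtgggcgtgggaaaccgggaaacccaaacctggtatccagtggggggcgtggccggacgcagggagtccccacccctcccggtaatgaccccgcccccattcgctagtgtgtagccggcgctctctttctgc
Tek, chr4:94739039-94739288, plus strand: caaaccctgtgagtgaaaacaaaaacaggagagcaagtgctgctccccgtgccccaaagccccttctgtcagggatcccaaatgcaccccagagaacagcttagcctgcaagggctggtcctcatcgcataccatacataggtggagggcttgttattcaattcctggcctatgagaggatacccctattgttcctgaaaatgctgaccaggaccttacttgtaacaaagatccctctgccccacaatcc
The GGAAG core occurred 3 times in the Flt1 stretch, 1 time in that of Kdr and 0 times in that of Tek. It is short and common, being found in 67.9% of 11668 promoter windows of 250 bases, the length of the Flt1 and Tek stretches, whose genes have a row in the table. The Kdr stretch has 247 bases. The cAMP response element occurred 1 time, in the Flt1 stretch, and is found in 2.6% of those promoters. These are matches of letters in a short window and say nothing of binding.

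The libraries differed in the level of marker RNA of some cell types. Adipoq, the adipocyte hormone adiponectin, lay between 78010 and 97150.0 normalized counts in all 16, and the endothelial genes Pecam1 and Cdh5 had at least 3134 and 3472 in every library. Skeletal muscle RNA varied most: the summed level of 14 muscle markers was 1190.0 to 11450.0 in HFD mice with antibody, 8337 to 645600.0 in untreated HFD mice, 39850.0 to 217300.0 in CD mice with antibody and 1374 to 41410.0 in untreated CD mice. The highest sum was that of untreated HFD replicate 2, where Acta1, skeletal muscle actin, reached 92640.0. Ucp1, the heat-producing uncoupling protein of brown and beige adipocytes, ranged from 14.84 to 6053 within the untreated HFD group and from 206.8 to 44770.0 within the untreated CD group. Pdgfc averaged 648 ± 83.45 and 703 ± 61.35 in HFD mice with and without antibody, and 588 ± 70.5 and 602 ± 213 in CD mice with and without it (SD, n = 4 each). Pdgfra averaged 3198 ± 368 and 3850.0 ± 820.0 in HFD mice with and without antibody, and 2905 ± 126 and 2877 ± 659 in CD mice with and without it.

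Divided by exonic length, so that genes can be compared, Vegfa was the most abundant of the 10, with a mean level of 2296 ± 381 normalized counts per kb (SD, n = 16 libraries), above 97.0% of the tested genes. Vegfb, whose product binds the receptor encoded by Flt1, followed at 1960.0 ± 241 per kb. Among the receptors, Tek stood at 429 ± 58.5, Kdr at 399.7 ± 94.6 and Tie1 at 314 ± 42.0 per kb. Angpt1 was at 199 ± 40.6 and Flt1 at 155 ± 27.6 per kb. The lowest levels were those of Angpt2, at 61.7 ± 15.3, Flt4 at 26.0 ± 5.28 and Vegfc at 23.55 ± 5.25 per kb. In this order, Vegfa and Vegfb, Tek and Kdr, Kdr and Tie1, and Flt4 and Vegfc differed from their neighbour by less than the larger SD. Vegfc thus rested on few counts, 39.6 to 81.0 per library. Exons of Angpt1 overlap 737 bases of the antisense gene Gm17473, and since the sources used here do not say whether reads were counted by strand, its values are uncertain to that extent.

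**Figure D1:**
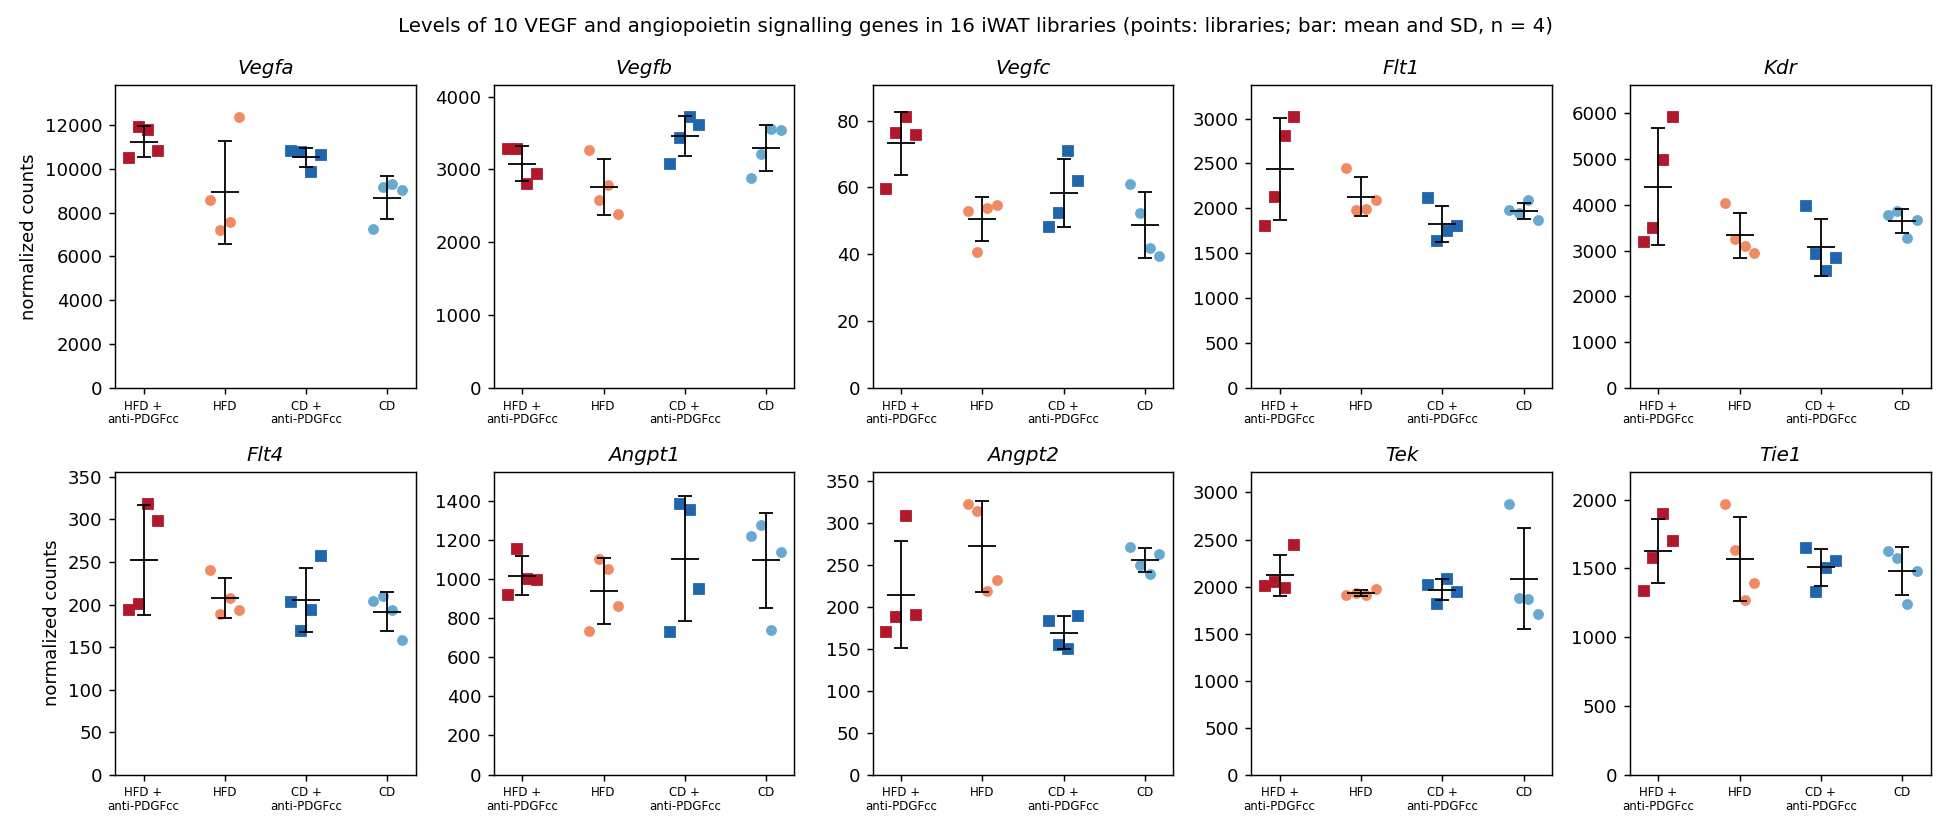
Normalized counts of each of the 10 genes in the 16 libraries, by group. Points are libraries and bars the mean and SD of 4 libraries; the y axis starts at 0 and differs between genes. The 4 untreated CD libraries of Angpt2 (239 to 271) all lie above the 4 CD libraries with antibody (149.7 to 189), whereas on HFD the groups overlap.

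Vegfa encodes the principal ligand of the receptors of Flt1 and Kdr. It lies on chromosome 17 (chr17:46016993-46032369, minus strand, GRCm38). In HFD mice with antibody the 4 libraries held 10472, 11900.4, 11779.6 and 10787 normalized counts, against 8564, 7203, 7579.9 and 12339 in untreated HFD mice. The antibody libraries were close together, and 3 of the 4 untreated ones lay below all of them, with replicate 4 above all of them. On CD the values were 10807, 10774, 9870.2 and 10621 with antibody, against 7229, 9162, 9290.2 and 9023 without. Here the groups did not overlap.

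A linear model of all 16 libraries and 14189 genes (limma on log2(value + 1), p-values adjusted by Benjamini and Hochberg within each comparison, threshold an adjusted p of 0.05) gave a change in Vegfa with antibody of 0.36 ± 0.14 on HFD (log2, SE; adjusted p 0.247) and of 0.28 ± 0.14 on CD (adjusted p 0.442). The mean of the 2, called the average antibody effect here, was 0.32 ± 0.096, a 1.25-fold higher level, with an adjusted p of 0.0931. It passed the threshold in 1 of 29 other settings tried, when untreated HFD replicate 4 was left out, at 0.41 and an adjusted p of 0.0139. In the other 28 it did not pass. In whole tissue, more RNA per cell and more cells of the type that makes it cannot be told apart. The average diet effect on Vegfa was 0.054 ± 0.096, with a 95% interval of -0.15 to 0.26.

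Vegfb encodes a ligand of the Flt1 receptor that is abundant in tissues that burn fat, such as brown fat, heart and muscle (chr19:6982473-6987651, minus strand). Its 4 libraries held 3277, 3287, 2806 and 2941 normalized counts in HFD mice with antibody, against 3078, 3428, 3714 and 3603 in CD mice with antibody. Without antibody they held 3270.0, 2585, 2792 and 2384 on HFD, against 2876, 3207, 3555 and 3539 on CD. The HFD values were mostly the lower ones in both comparisons, but the groups overlapped in each. The means were 3078 ± 242 on HFD and 3456 ± 278 on CD with antibody, and 2758 ± 380.0 on HFD and 3294 ± 322 on CD without (SD, n = 4 each).

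Averaged over both antibody states, Vegfb fell by 0.21 on the log2 scale with HFD (SE 0.071, 95% interval -0.37 to -0.062, 0.86-fold, limma adjusted p 0.0472). It was the 1 member of the 10 past the threshold in this comparison, where 19.4% of all tested genes passed, 8.28% as higher and 11.1% as lower, so the share of members is below that of the whole table in either direction and near it among lower genes. With an unadjusted p under 0.05 there were 2 members, Vegfb lower and Flt1 higher, against 36.0% of all tested genes. The call is fragile. It was kept when replicate 1 of any group was left out (adjusted p 0.0152 to 0.0486) and lost when any of the other 12 libraries was left out, with an adjusted p of up to 0.0953. With column totals as the scale the change was -0.13 (adjusted p 0.143).

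Vegfb moved with the thermogenic markers, a list of 12 genes that includes Ucp1. Over 16 libraries its log2 level correlated with the mean of that list at Pearson's r = 0.78 (permutation test, p 0.00034, adjusted p 0.00453 over 40 relations of members and marker lists) and Spearman's rho = 0.64 (adjusted p 0.0903). Without the 2 libraries farthest from the median of the list mean, r was 0.72 (permutation p 0.00321), and with group means taken out it was 0.65. Within the 8 libraries with antibody r was 0.41, and within the 8 without it was 0.95. The relation was not particular to this list. With the mean of the mature adipocyte markers Vegfb had r = 0.61 and rho = 0.59 (permutation tests, adjusted p 0.0859 and 0.11). With group means taken out that r was 0.69. Of the 12 thermogenic markers, 0 rose and 5 fell with HFD on average, against 11.1% of all tested genes lower, and all 12 estimates were lower, with a median of -1.62, against 0.022 over all tested genes. With the thermogenic mean as a covariate, the diet effect on Vegfb was -0.097 (limma adjusted p 0.501).

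**Figure D2:**
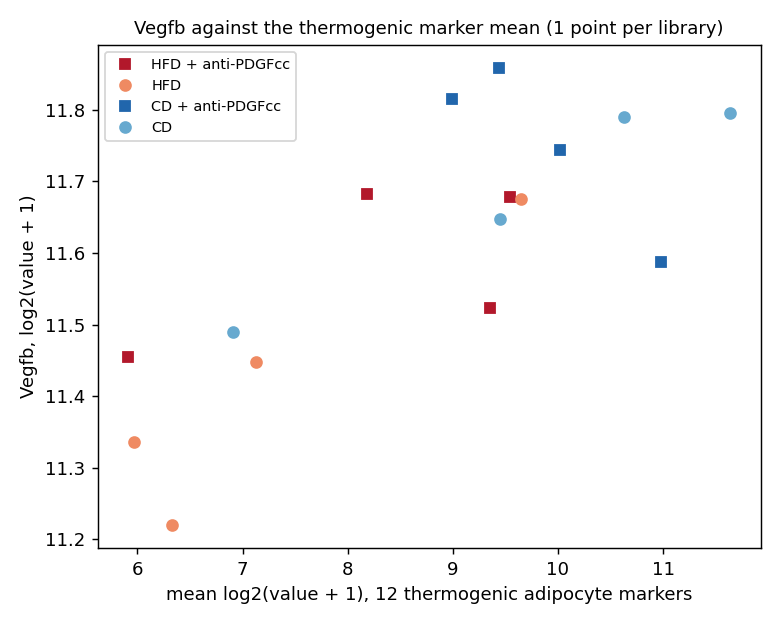
Vegfb in each library, log2(value + 1), against the mean log2(value + 1) of 12 thermogenic adipocyte markers. Each point is 1 of 16 libraries, coloured by group; the 3 lowest Vegfb values belong to libraries with a list mean of at most 7.13, and r over all points was 0.78.

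Vegfc encodes the ligand of the Flt4 receptor, known for the growth of lymphatic vessels (chr8:54077606-54187096, plus strand). Its libraries held 59.6, 76.4, 81.0 and 75.8 normalized counts in HFD mice with antibody, against 52.8, 40.7, 53.9 and 54.7 in untreated HFD mice. All 4 antibody libraries were above all 4 untreated ones. On CD the libraries with antibody held 48.1, 52.4, 70.8 and 62.0, against 60.9, 52.4, 42.0 and 39.6 without, and these groups overlapped. The change with antibody was 0.53 ± 0.18 on HFD (1.44-fold, limma adjusted p 0.196), 0.26 ± 0.18 on CD (adjusted p 0.616) and 0.39 ± 0.12 on average (1.31-fold, adjusted p 0.113). The average diet effect was 0.20 ± 0.12 (adjusted p 0.266). Markers of lymphatic endothelium gave no call either: of 8, Prox1 and Foxc2 lay below the filter, 1 had no row under its symbol and 5 were tested. By limma 0 of the 5 passed for the average diet effect and 0 for the average antibody effect, against 19.4% and 2.52% of all tested genes. In each, 1 of the 5 had an unadjusted p under 0.05, against 36.0% and 16.8%. For the antibody on HFD alone, 0 of the 5 passed, against 0.0775% of all tested genes. An unadjusted p under 0.05 was found for 2, Lyve1 at -0.90 and Reln at -0.72, against 13.5% of all tested genes. The list median was -0.51. For HFD minus CD without antibody 0 of the 5 passed, against 8.15% of all tested genes. An unadjusted p under 0.05 was found for 3, all 3 higher, against 30.3% of all tested genes, and the list median was 0.46. The part of these cells in the result was not tested.

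The receptor genes Flt1 and Kdr lie on chromosome 5. Flt1 encodes a receptor that binds VEGF-A tightly and signals weakly, and Kdr the receptor that carries most of the VEGF-A signal. Flt1 (chr5:147561604-147726011, minus strand) held 1802, 2129, 2801 and 3012 normalized counts in HFD mice with antibody, against 2454, 1977, 1996 and 2095 in untreated HFD mice. On CD it held 2115, 1634.5, 1751 and 1802 with antibody, against 1981, 1947, 2091 and 1871 without. HFD replicates 3 and 4 with antibody were the highest of all 16 libraries, and groups overlapped on both diets. Kdr (chr5:75932827-75978458, minus strand) held 3182, 3492, 4987 and 5907 with antibody on HFD, against 4039.6, 3242, 3093.5 and 2942 without. On CD it held 3981, 2927, 2554.5 and 2826 with antibody, against 3769.9, 3862, 3279 and 3664.5 without. The same 2 HFD libraries with antibody stood highest.

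For Kdr the change with antibody was 0.36 ± 0.18 on HFD (limma adjusted p 0.398) and -0.26 ± 0.18 on CD (adjusted p 0.616). The difference between these, the interaction of antibody and diet, was 0.63 ± 0.25 with an unadjusted p of 0.0252 and an adjusted p of 0.691. For the interaction 0 of the 10 members passed, 1 had an unadjusted limma p under 0.05, and 0% of all tested genes passed, 6.18% having an unadjusted p under 0.05. Estimates for muscle RNA pointed opposite ways on the 2 diets: all 14 muscle markers were lower with antibody on HFD (median -5.39) and all 14 were higher on CD (median 3.99). Of them 0 passed the threshold on either diet. On HFD 11 and on CD 10 had an unadjusted limma p under 0.05, against 13.5% and 11.6% of all tested genes. With the muscle mean as a covariate the interaction of Kdr was 0.64, and with the endothelial mean it was 0.49 (adjusted p 0.53). Leaving out HFD replicate 4 with antibody made it 0.47. For Flt1 the change with antibody was 0.17 ± 0.14 on HFD and -0.12 ± 0.14 on CD.

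With diet, Flt1 was 0.25 ± 0.096 higher on average (95% interval 0.045 to 0.45, limma adjusted p 0.0773). It passed in 3 of 29 other settings tried and did not pass in 26. Those where it passed include leaving out HFD replicate 1 with antibody (0.32, adjusted p 0.0199) and column totals as the scale (0.33, adjusted p 0.0222). In mice with antibody alone, the HFD minus CD difference was 0.39 ± 0.14 for Flt1 (adjusted p 0.164) and 0.49 ± 0.18 for Kdr (adjusted p 0.178). In that comparison all 14 muscle markers were lower in HFD mice, with a median of -7.19. Of them 0 passed the threshold and 14 had an unadjusted limma p under 0.05, against 18.1% of all tested genes. Endothelial markers moved with these genes: of 20, 7 rose and 0 fell with HFD on average, against 19.4% of all tested genes past the threshold and 8.28% past it as higher. All 20 estimates were higher and the median change was 0.26, against 0.022 over all tested genes. Pecam1, a junction protein of endothelial cells, rose by 0.30 ± 0.079 (adjusted p 0.0206), and Cdh5, their cadherin, was at 0.20 ± 0.12 (adjusted p 0.248). Of other cell types' markers, 3 of 15 mural, 1 of 12 macrophage and 1 of 12 adipose progenitor genes rose, 1 of 14 muscle genes fell, and 0 of 12 mature adipocyte genes passed (1 with an unadjusted p under 0.05). Their part in the result was not tested. With the endothelial mean as a covariate the diet effect on Flt1 was 0.014 (adjusted p 0.946).

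Flt4 encodes the receptor of VEGF-C (chr11:49609263-49652739, plus strand). It averaged 253 ± 64.5 normalized counts in HFD mice with antibody, 208 ± 23.1 in untreated HFD mice, 206 ± 37.4 in CD mice with antibody and 192 ± 23.1 in untreated CD mice (SD, n = 4 each). Its average diet effect was 0.20 ± 0.12 (adjusted p 0.247) and its average antibody effect 0.17 ± 0.12 (adjusted p 0.529), and groups overlapped in each of the 4 pairwise comparisons.

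**Figure D3:**
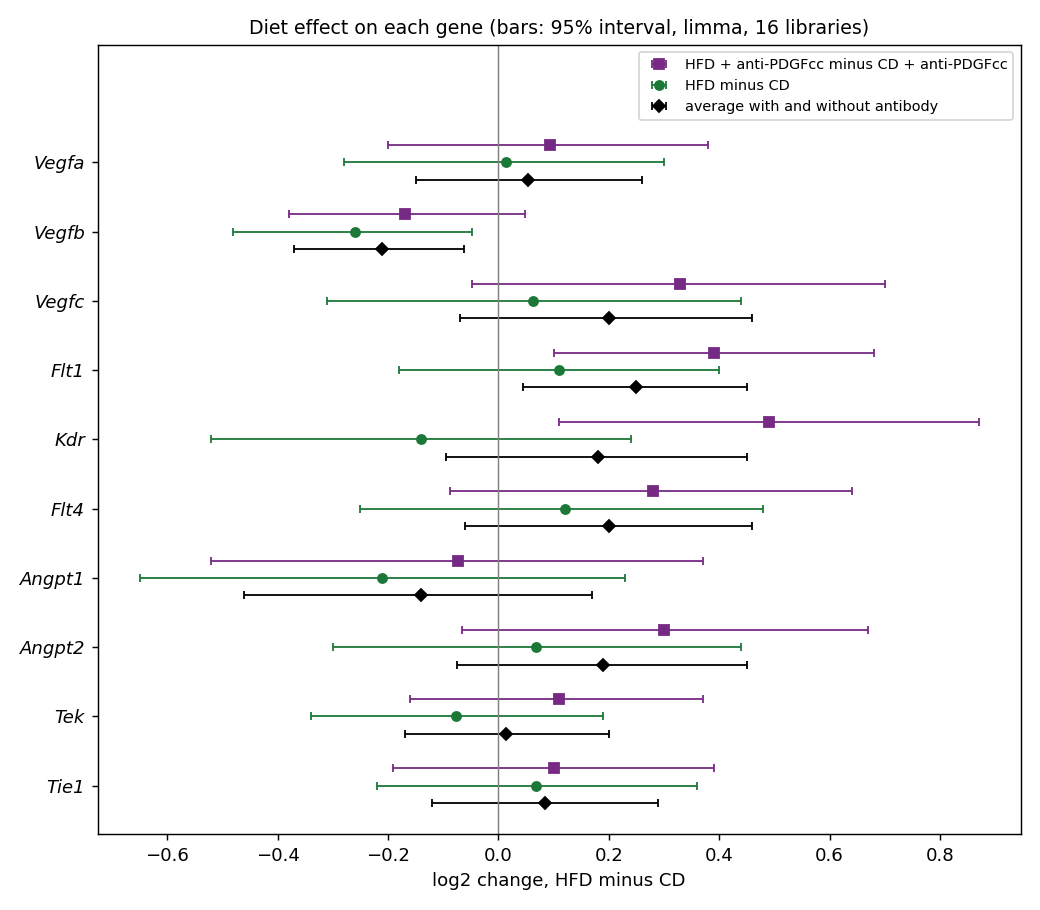
Diet effect on each of the 10 genes, as the log2 change of HFD minus CD with antibody, without antibody and on average. Bars are 95% intervals from limma over 16 libraries. The average for Vegfb (-0.21) lies below 0 with its whole interval, that for Flt1 (0.25) above 0, and the other 8 intervals of the average include 0.

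Angpt2 encodes the antagonist angiopoietin and is made by activated endothelium (chr8:18690263-18741562, minus strand). In HFD mice with antibody its libraries held 169, 188, 308.5 and 190.4 normalized counts, against 322, 314, 218 and 232 in untreated HFD mice. Replicate 3 with antibody was the single one within the untreated range, and the other 3 lay below all untreated libraries. On CD the libraries with antibody held 183, 154, 149.7 and 189, against 271, 250.03, 239 and 262 without. On CD the groups did not overlap, and the untreated values exceeded every value with antibody.

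The change in Angpt2 with antibody was -0.36 ± 0.17 on HFD (limma adjusted p 0.379) and -0.60 ± 0.17 on CD (0.66-fold, adjusted p 0.193). On average it was -0.48 ± 0.12, a 0.72-fold level, with a 95% interval of -0.74 to -0.22, an unadjusted p of 0.00136 and an adjusted p of 0.0526. For the average antibody effect 0 of the 10 members passed by limma, against 2.52% of all tested genes. With an unadjusted p under 0.05 there were 3 members (Angpt2 lower, Vegfa and Vegfc higher), against 16.8% of all tested genes, 8.73% higher and 8.08% lower. Angpt2 passed without HFD replicate 3 with antibody (-0.57, adjusted p 0.0129), after quantile normalization (-0.51, 0.0405), with a stricter filter (0.0491), with library weights (-0.47, 0.00724) and with the endothelial or thermogenic mean as a covariate (0.0112 and 0.049). In the other 23 of 29 settings tried it did not pass, with an adjusted p of up to 0.121.

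**Figure D4:**
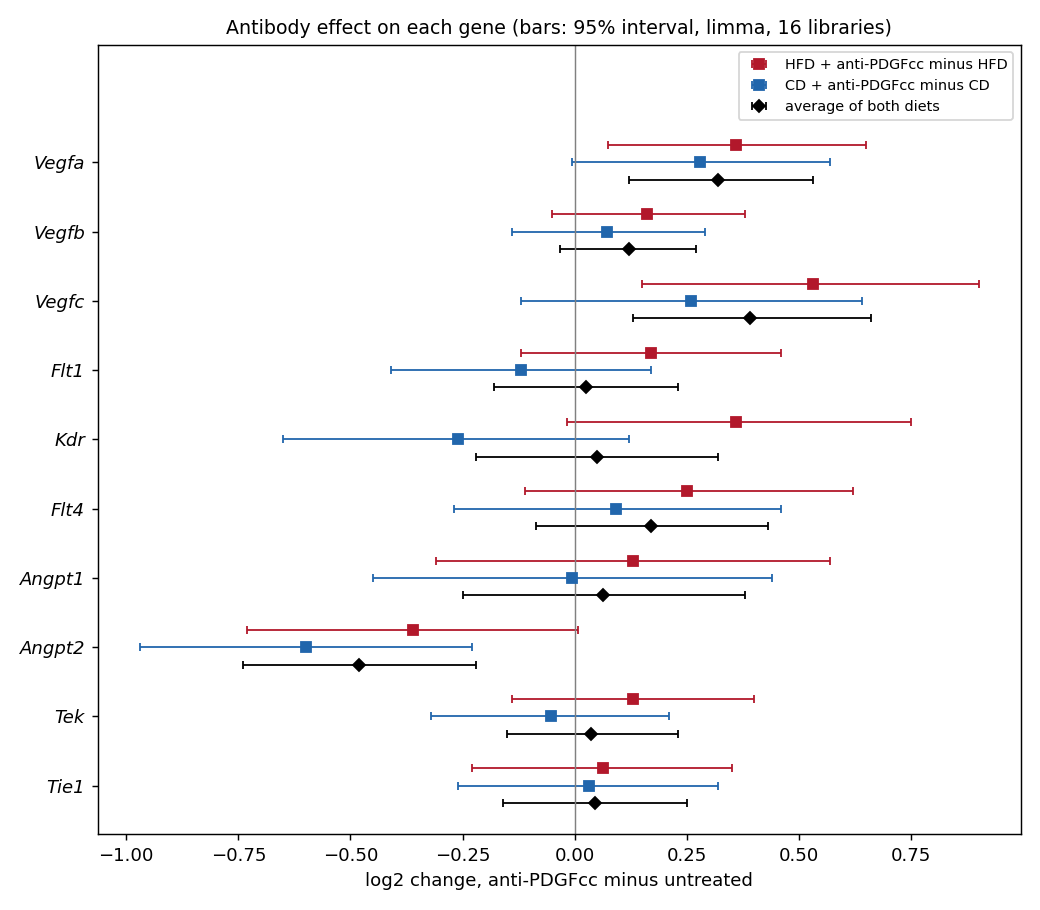
Antibody effect on each of the 10 genes, as the log2 change of antibody minus none on HFD, on CD and on average. Bars are 95% intervals from limma over 16 libraries. The average for Angpt2 (-0.48) lies below 0 with its whole interval and those for Vegfa (0.32) and Vegfc (0.39) above 0, while the 3 VEGF receptor averages (0.026 to 0.17) include 0.

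Because Angpt2 is largely an endothelial product, it was also expressed relative to the mean of the 20 endothelial markers, in a fit across all genes so expressed. On that scale its average antibody effect was -0.56 ± 0.10 (log2, SE) with a limma adjusted p of 0.020, and it was the 1 member past the threshold, among 76 genes of the whole table. Without HFD replicate 2 with antibody its adjusted p was 0.062, and it was 0.0542 without untreated CD replicate 3 and untreated HFD replicate 2 together. Of the 20 endothelial markers themselves, 2 rose and 0 fell with antibody on average. Over all tested genes 2.52% passed, and 218 of 14189 rose. The median of the list was 0.041, against -0.0077 over all tested genes. On the same relative scale the average diet effect on Vegfb was -0.47 ± 0.12 (limma adjusted p 0.00863). It was the 1 member past the threshold, where 4490 of 14189 genes passed, so calls were common. Not set against the list, the change was -0.21 (limma adjusted p 0.0472). The relative scale subtracts the endothelial mean, and the list median rose by 0.26 with HFD. Vegfb did not follow that mean (r = -0.37, permutation test, adjusted p 0.438). The smaller p is therefore no added evidence of a fall in Vegfb itself. Over 16 libraries Angpt2 and the endothelial mean had r = 0.41 and rho = 0.32 (permutation tests, adjusted p 0.387 and 0.496). With group means taken out r was 0.75, and it was 0.78 both within the 8 antibody libraries and within the 8 untreated ones.

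**Figure D5:**
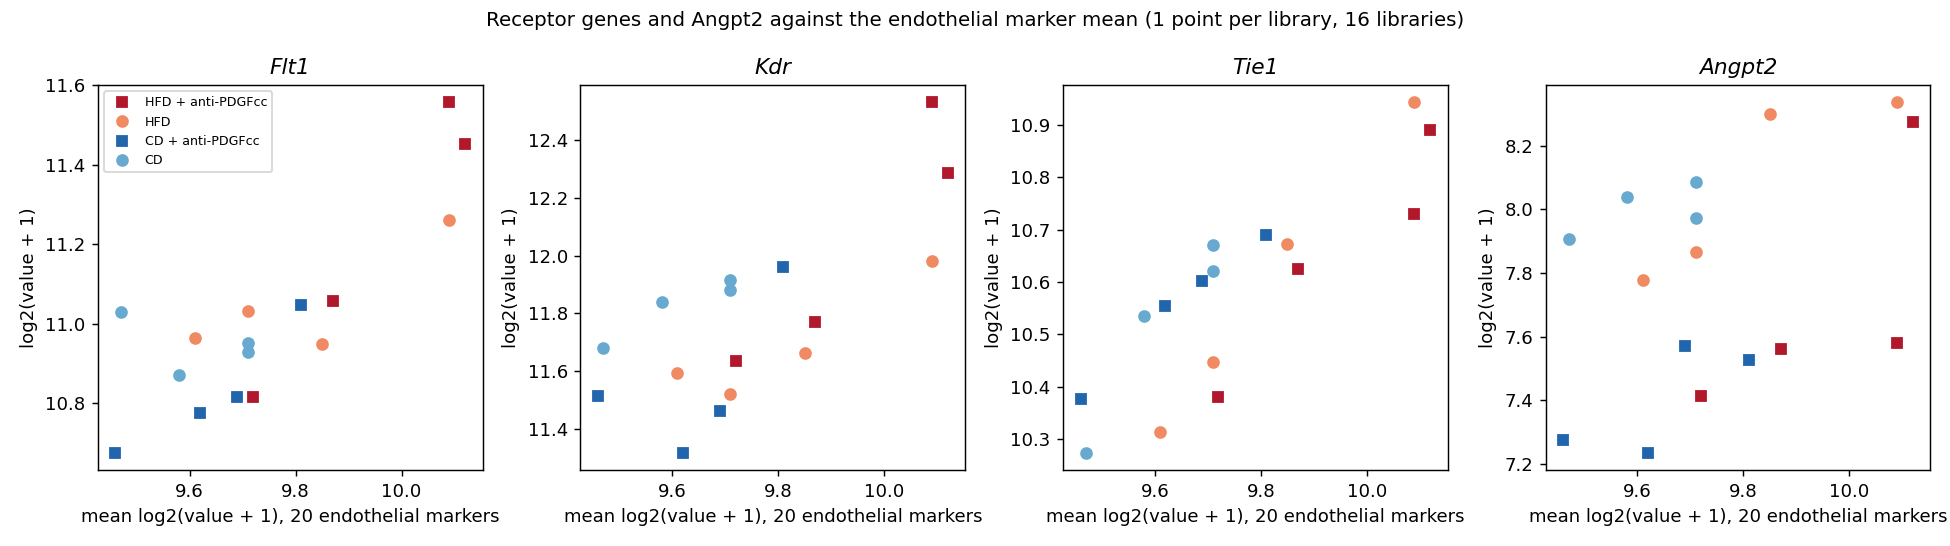
Log2(value + 1) of Flt1, Kdr, Tie1 and Angpt2 in each library against the mean log2(value + 1) of 20 endothelial markers. Each point is 1 of 16 libraries, coloured by group, with squares for antibody and circles for no antibody. Flt1, Kdr and Tie1 go up with the marker mean (r = 0.84, 0.74 and 0.86), and for Angpt2 7 of the 8 antibody libraries lie below all untreated ones.

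Angpt1 encodes the agonist of the Tek receptor and comes from mural and stromal cells (chr15:42424723-42676977, minus strand). It averaged 1016 ± 98.8 normalized counts in HFD mice with antibody, 936.5 ± 169 in untreated HFD mice, 1103 ± 318 in CD mice with antibody and 1094 ± 243 in untreated CD mice. Its spread on CD, 731 to 1382 with antibody and 739.6 to 1277 without, was wider than any difference between groups. The ratio of Angpt2 to Angpt1 in normalized counts, without correction for length, was 0.212 ± 0.066 on HFD with antibody and 0.300 ± 0.098 without. On CD it was 0.168 ± 0.069 with antibody and 0.243 ± 0.055 without. The ranges overlapped on both diets.

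Tek encodes the receptor of both angiopoietins (chr4:94739289-94874976, plus strand). Its libraries held 2003, 2051, 1979.6 and 2439.6 normalized counts in HFD mice with antibody, against 1905, 1936, 1911 and 1969.8 in untreated HFD mice. The 4 antibody libraries were all above the 4 untreated ones, though the nearest of each, 1979.6 with antibody and 1969.8 without, were almost level. On CD the libraries with antibody held 2019.8, 1816, 2075 and 1945, against 2876, 1874, 1871 and 1705 without, and these overlapped. Untreated CD replicate 1 stood far above the rest. The average antibody effect was 0.037 ± 0.088 (adjusted p 0.897) and the average diet effect 0.014 ± 0.088 (adjusted p 0.921). Tie1 encodes an orphan receptor that pairs with the Tek receptor (chr4:118471191-118490061, minus strand). It averaged 1626 ± 236 in HFD mice with antibody, 1567 ± 306 in untreated HFD mice, 1509 ± 134 in CD mice with antibody and 1481 ± 173 in untreated CD mice.

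Counting groups that do not overlap, Vegfc and Tek were higher with antibody on HFD, 2 of the 10 members against 7.38% of all tested genes in either direction and 3.91% higher. On CD Vegfa was higher and Angpt2 lower, 2 of 10 against 6.77% in either direction, 3.43% higher and 3.33% lower. Between HFD and CD 0 of 10 members had groups that did not overlap, against 15.5% of all tested genes with antibody and 9.73% without. Each of the 4 pairs that did not overlap had an exact two-sided permutation p of 0.0286, unadjusted, which is the smallest that 70 assignments allow. Full separation of 4 against 4 libraries fixes this p in advance. It therefore restates that the groups did not overlap and adds no support. The permutation p of Tek was 0.0571 with column totals as the scale, so its HFD groups were no longer fully separate there. It was 0.0571 to 0.114 without HFD replicate 4 with antibody or without any 1 of the 4 untreated HFD libraries. That of Vegfc was 0.0571 without any 1 of the 4 untreated HFD libraries, and that of Vegfa 0.0571 without untreated CD replicate 1. Leaving out a library cannot make separate groups overlap. A p of 0.0286 could still be reached with a library left out, as that of Angpt2 on CD was 0.0286 in 8 of 8 such cases. The smaller number of libraries alone therefore does not set a higher p. The log2 difference of Tek was 0.13 with all libraries and 0.059 to 0.16 with a library left out, so its size depended on single libraries. In the limma fit, 0 of 10 members passed for the antibody on HFD (0.0775% of all genes, and 2 members with an unadjusted p under 0.05 against 13.5% of genes) and 0 of 10 on CD (0.0987%, and 1 member against 11.6%). For HFD minus CD, 0 of 10 passed without antibody (8.15% of all genes, and 1 member, Vegfb, with an unadjusted p under 0.05 against 30.3%). With antibody 0 of 10 passed (0.00705%, and 2 members against 18.1%).

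The receptor genes other than Tek followed the endothelial list. The correlation with its mean over 16 libraries was r = 0.86 for Tie1 (rho = 0.84), 0.84 for Flt1 (rho = 0.71), 0.77 for Flt4 (rho = 0.60) and 0.74 for Kdr (rho = 0.67), by permutation tests with adjusted p of 0.002, 0.0022, 0.0078 and 0.00872 for r and of 0.0036, 0.0516, 0.11 and 0.0759 for rho over the 40 relations. Without the 2 libraries farthest from the median, HFD replicates 3 and 4 with antibody, r was 0.84 for Tie1 and 0.70 for Flt1 (permutation p 0.00032 and 0.00663). It was 0.53 for Flt4 and 0.50 for Kdr (permutation p 0.0513 and 0.0694), so those relations rest in part on these libraries. Within the 8 untreated libraries r was 0.90 for Tie1, 0.67 for Flt1, 0.62 for Flt4 and 0.43 for Kdr. Within the 8 libraries with antibody it was 0.86, 0.97, 0.85 and 0.90 in the same order. Tek had r = 0.30 and rho = 0.49 over the 16 libraries (adjusted p 0.569 and 0.274). Its r was 0.65 within the 8 libraries with antibody and 0.08 within the 8 untreated ones. The untreated ones include CD replicate 1, where Tek stood far above the rest. Among the 45 pairs of members, Flt1 and Kdr were the closest, with r = 0.87 and rho = 0.76 (adjusted p 0.00135 and 0.0424), and r was 0.63 without the 2 libraries farthest from the median of Flt1 (permutation p 0.0141).

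By Pearson's r over the 16 libraries, the non-member genes most like Flt1 were Adgrf5, Cyyr1 and Cdh5 (r = 0.931, 0.927 and 0.918). Those most like Kdr were Cdh5, Ets1, which encodes an ETS transcription factor, and Zfp366 (0.904, 0.887 and 0.884). Flt4 was most like Sema3g, Eng and She (0.863, 0.861 and 0.853), and Tie1 most like Daam2, Sept4 and Heyl (0.905, 0.902 and 0.891). For Angpt2 they were Lrrc8c, Mrip-ps and Apln, the peptide apelin made by sprouting endothelium (0.914, 0.892 and 0.887). For Tek they were Agtr1a, Prdm8 and Serinc5 (0.920, 0.869 and 0.83). The ligand genes were most like Rhpn2, Zfp598 and Tmem17 for Vegfa (0.857, 0.836 and 0.793), Rab34, Cbr1 and Use1 for Vegfb (0.941, 0.910 and 0.902), and Carmil1, Bcar3 and Unc45bos for Vegfc (0.904, 0.867 and 0.863). These are the tops of 14189 ranked values each and are given as a description.

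Other genes of the pathway were taken from 4 lists. Of 10 tested co-receptors, further ligands and processing factors, 2 rose and 0 fell with HFD on average: Adamts14, a procollagen protease, by 0.51 ± 0.10 (limma adjusted p 0.00796) and Svep1, an extracellular protein of lymphatic development, by 0.33 ± 0.11 (adjusted p 0.0472). Adamts14 also rose with HFD in untreated mice alone, by 0.77 ± 0.15 (adjusted p 0.0167). The median of the list was 0.22, against 0.022 over all tested genes, and its 2 called genes of 10 are near the 19.4% called in the whole table. The co-receptor Nrp1 averaged 5056 ± 428 in HFD mice with antibody, 4596 ± 295 in untreated HFD mice, 4115 ± 279.8 in CD mice with antibody and 4840 ± 559 in untreated CD mice. With antibody on average 0 of the 10 passed by limma (1 with an unadjusted p under 0.05, against 16.8% of all tested genes). The gene with the smallest p was Pgf, placental growth factor, another ligand of the Flt1 receptor, at -0.58 ± 0.16 (adjusted p 0.0746). Pgf averaged 59.0 ± 10.45 in HFD mice with antibody, 98.4 ± 28.7 in untreated HFD mice, 61.0 ± 9.74 in CD mice with antibody and 86.0 ± 25.75 in untreated CD mice.

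Of 26 signal transducers downstream of the receptors, 1 rose and 2 fell with HFD on average, a share below the 19.4% of all tested genes. Tnip2, an adaptor known to bind the Tek receptor, rose by 0.29 ± 0.086 (adjusted p 0.0306). Map2k1, the MEK kinase, was at -0.15 ± 0.037 (adjusted p 0.0165) and Rcan1, an inhibitor of calcineurin that VEGF induces, at -0.21 ± 0.056 (adjusted p 0.0222). With antibody on average 0 rose and 1 fell, against 2.52% of all tested genes past the threshold. It was Pik3ca, the catalytic PI3-kinase subunit, at -0.18 ± 0.042 (adjusted p 0.0374).

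Of 23 genes of angiogenic sprouts, 4 rose and 0 fell with HFD on average, with a list median of 0.21. Over all tested genes 19.4% passed, 8.28% as higher. They were Angptl4 (0.80 ± 0.20, adjusted p 0.0163), an inhibitor of lipoprotein lipase that adipocytes also make, the basement membrane collagens Col4a1 and Col4a2 (0.47 ± 0.12 and 0.48 ± 0.13, adjusted p 0.017 and 0.0193) and the laminin chain Lama4 (0.41 ± 0.13, adjusted p 0.0389). Adipocytes also make basement membrane. With antibody on average 0 of 23 passed by limma (5 with an unadjusted p under 0.05, against 16.8% of all tested genes). The smallest p was that of Unc5b, a netrin receptor of tip cells, at 0.50 ± 0.13 (adjusted p 0.0593). Of 16 tested hypoxia and Vegfa regulator genes, 2 rose and 6 fell with HFD on average, against 19.4% of all tested genes past the threshold. Arnt, the partner of the hypoxia factors, rose by 0.22 ± 0.049 (adjusted p 0.0104) and Ndrg1, a hypoxia and stress gene, by 0.38 ± 0.091 (adjusted p 0.0141). Among those that fell was Ldha, lactate dehydrogenase A, at -0.44 ± 0.084 (adjusted p 0.00719). Pdk1, a kinase that inhibits pyruvate dehydrogenase, fell as well (adjusted p 0.00708). It averaged 1630.0 ± 282 on HFD and 2747 ± 507 on CD with antibody, and 1172 ± 232 on HFD and 3005 ± 1271 on CD without. In untreated mice alone 4 of these 16 genes passed, against 8.15% of all tested genes. Ndrg1 and Arnt rose, and Pdk1 and Egln1, an oxygen-sensing hydroxylase, fell (limma adjusted p 0.0304, 0.0361, 0.0264 and 0.0468). With antibody on average 0 of 16 passed by limma (4 with an unadjusted p under 0.05, against 16.8% of all tested genes). P4ha1, a collagen prolyl hydroxylase, had the smallest p at -0.51 ± 0.13 (adjusted p 0.0527). In all 4 lists together, 75 genes, 17 passed for the average diet effect, against 19.4% of all tested genes. For HFD minus CD without antibody 5 passed (8.15% of all tested genes), and 1 for the average antibody effect (2.52%). By limma 0 passed for the antibody on HFD (0.0775%), 0 on CD (0.0987%), 0 for HFD minus CD with antibody (0.00705%) and 0 for the interaction (0%). With an unadjusted p under 0.05 there were 14, 5, 17 and 3 of 75, against 13.5%, 11.6%, 18.1% and 6.18% of all tested genes. The smallest p of each list for the antibody on HFD were those of Adamts14 (-0.46, adjusted p 0.18), Plcg1, a phospholipase that binds the Kdr receptor (0.31, 0.18), Unc5b (0.63, 0.162) and P4ha1 (-0.73, 0.121). For the antibody on CD they were those of Nrp1 (-0.23, 0.317), Pik3ca (-0.20, 0.193), Apln (-0.78, 0.29) and Arnt (0.19, 0.31). For HFD minus CD with antibody they were those of Nrp1 (0.30, 0.118), Map2k1 (-0.20, 0.096), Angptl4 (0.86, 0.147) and Ldha (-0.50, 0.0898). For the interaction they were those of Nrp1 (0.37, 0.483), Prkca, a protein kinase C (-0.51, 0.774), Hey1, a Notch target (0.45, 0.87), and Ndrg1 (-0.35, 0.864). In untreated mice, for HFD minus CD, the transducers and the sprout genes had none past the threshold by limma, against 8.15% of all tested genes. An unadjusted p under 0.05 was found for 6 of 26 and 6 of 23, against 30.3% of all tested genes. The smallest p were those of Tnip2 (0.38, adjusted p 0.0593) and Col4a1 (0.54, 0.0578).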

How the data were processed

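Poly-A RNA of 16 libraries was sequenced, with 2 lanes per sample per the labels' protocols. The tools named, per the submitters' processing notes, are limma 3.42.2, Subread 1.6.2, featureCounts, STAR 2.7.0e and fastp 0.20.1, with builds GRCm38 and mm10 and no roles. The authors deposited a linear signal for each gene, called normalized counts, whose normalization is not given in the sources used here. Values were not whole, and no common step was found that would recover reads, so read depth is unknown and no count model was run. Column totals were 24.02 to 28.15 (1e6 normalized counts). Values were taken as log2(value + 1), which understates changes of low genes. Genes above 24.49 (the median total over 1e6) in at least 4 libraries were tested: 14189, with 1902 left out. One mean per group was fitted with limma 3.58.1 in R 4.3.3 (trend; 12 residual and 3.07 prior degrees of freedom), with 7 contrasts. Single values were tested by exact permutation and correlations by 100000 permutations, two-sided; the fit was tested on simulated data. Since separate animals are not stated, p-values reflect only sample-to-sample spread, part of which may be technical. Coordinates are GENCODE vM21 (GRCm38). The members and lists were chosen with earlier results of these data known. Named were all members, Ucp1, Pecam1, Cdh5, Adipoq, Acta1, Pdgfc and Pdgfra, up to 4 called genes per pathway list and contrast, those of smallest p (else the 1 of smallest p), and the 3 genes most like each member, which for Angpt1 are not reported here. Changes of single members were followed through other settings for both averages, for pairs with an unadjusted p under 0.05 and for the antibody effects of members with such a pair.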

Additional observations from a re-analysis of the deposited data

Results flagged for a closer look

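Over 40 groups of 4 libraries, 1 per gene and group, 5 had a library that stood apart by Dixon's ratio, the gap to the nearest library over the group's range. Chance gives about 1 in 20. The lowest untreated CD library of Vegfa (replicate 1, 7229 normalized counts) had a ratio of 0.870. Without it the exact permutation p of the antibody effect on CD was 0.0571, with 4 libraries with antibody against 3. The groups still did not overlap. With a library left out the log2 difference was 0.20 to 0.32, against 0.28 with all libraries. The lowest untreated HFD library of Vegfc (replicate 2, 40.7) had a ratio of 0.866. The highest HFD library with antibody of Angpt2 (replicate 3, 308.5) had a ratio of 0.849, and it was the library without which Angpt2 passed the threshold for the average antibody effect. For Tek the highest HFD library with antibody (replicate 4, 2439.6) had a ratio of 0.845 and the highest untreated CD library (replicate 1, 2876) one of 0.855.

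The differences for Tek also pointed opposite ways by diet. Relative to the mean of the untreated group of the same diet, all 4 HFD libraries with antibody were higher and all 4 CD libraries with antibody were lower, the 2 mean differences being 305.5 normalized counts apart. Seen by diet, the same 305.5 counts separate the HFD minus CD differences with and without antibody. The untreated CD mean, 2081, includes replicate 1 at 2876. The difference was not tested by this comparison of directions, and the limma interaction for Tek had an adjusted p of 0.878.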

How the results depend on the processing

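Of the 10 members, the count past the threshold for the average diet effect (1) was 0 after quantile normalization, without a filter, with the replicate block, without a variance trend, without untreated CD replicate 3 and untreated HFD replicate 2 together, and with the endothelial or thermogenic covariate. With column totals it was 1, and that gene was Flt1 in place of Vegfb. It was 2 with library weights, and 0 to 2 with a library left out. For the average antibody effect the count (0) was 1 after quantile normalization, with the stricter filter, with library weights and with the endothelial covariate, 2 with the thermogenic covariate, and 0 to 1 with a library left out. Library weights also gave 1 for HFD minus CD without antibody (0 to 1 with a library left out) and 1 for the antibody on CD. Relative to the endothelial markers, the antibody count (1) was 0 with the replicate block and without the 2 libraries together, 3 with library weights, and 0 to 1 with a library left out. The diet count (1) was 3 with library weights, 0 with the thermogenic covariate, and 1 to 2 with a library left out. Angpt2 on that scale was -0.56 with the replicate block (adjusted p 0.0676), -0.52 without the 2 libraries together (0.0542), and -0.63 to -0.52 with a library left out. Of 16 same-numbered pairs of replicates, 6 had a correlation of deviations over 0.1 and 4 correlated best with their own number. Those 4 were all of replicate 2 (r = 0.49, 0.24, 0.47 and 0.13). Whether samples of the same number are paired or share a batch was not tested. The replicate block moved Vegfb to an adjusted limma p of 0.0914. The log2 differences behind the exact permutation tests ranged with a library left out from 0.43 to 0.62 for Vegfc (p at 0.0286 in 4 of 8 cases, up to 0.0571), from 0.059 to 0.16 for Tek (3 of 8, up to 0.114) and from 0.20 to 0.32 for Vegfa (7 of 8, up to 0.0571), and Tek was at 0.13 (p 0.0571) with column totals. Groups that are separate stay so when a library is left out. A p of 0.0286 could still be reached then, as Angpt2 on CD had it in 8 of 8 cases. Estimates near 0 changed sign. With the endothelial covariate the average diet effects were -0.15 (Kdr), -0.068 (Flt4), -0.10 (Angpt2), -0.071 (Tek) and -0.21 (Tie1), and the average antibody effects -0.049 (Flt1), -0.054 (Kdr) and -0.048 (Tie1). The diet effect on Tek was -0.085 with the thermogenic covariate and -0.0068 without the 2 libraries together. With a library left out the antibody effects spanned -0.03 to 0.093 (Flt1), -0.029 to 0.12 (Kdr), -0.00058 to 0.10 (Tie1), -0.026 to 0.15 (Angpt1) and -0.0052 to 0.12 (Tek), and the diet effects -0.029 to 0.097 (Tek) and -0.03 to 0.10 (Vegfa). Over all settings without a library left out, genes past the threshold numbered 6 to 5119 for the average diet effect (2757), 123 to 1958 for the average antibody effect (358), 0 to 4380 for HFD minus CD without antibody (1157), 0 to 1099 with antibody (1), 0 to 1330 for the antibody on HFD (11), 0 to 757 on CD (14) and 0 to 1 for the interaction (0). The cause of these shifts was not tested. Read depth is unknown.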
